A study of Vitis x labruscana x Vitis vinifera with 36 samples.

Results

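In berries of the table grape 'Shine Muscat', 69 genes had transcript levels that were lower at each later stage in seedless flesh, seeded flesh, seedless skin and seeded skin alike. They were chosen by these levels themselves. Counts were divided by the library total and multiplied by 1000000 to give CPM, and L was taken as log2(mean CPM of the 3 libraries of a group + 1). A gene was kept when its identifier began with VIT, its mean over 36 libraries was 10 CPM or more, L declined from stage 1 to 3 and from stage 3 to 4 in each of the 4 series, and L at stage 4 was at least 1.3 below L at stage 1 in each. Of 29971 VIT rows in the table, 9304 reached 10 CPM, 469 of those declined at both steps in every series, and 69 of the 469 passed the size limit. The stage differences of these genes are therefore a description with no test.

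The cultivar was bred from Vitis labruscana crossed with Vitis vinifera. The libraries fall into 12 groups of 3: seedless and seeded berries, each sampled as flesh and as skin, at stages numbered 1, 3 and 4. Seedless berries are called treated in the title of the study; the sources used here name neither the agent and its dose nor the dates of the stages. Stage 2 is not analysed here. The study compared the aroma of treated and untreated berries as they ripened. The labels do not say whether the 3 replicates of a group came from separate vines, so a p-value here takes in only the scatter among libraries of a group, and that scatter may be technical.

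A grape berry first grows by cell division and expansion while it is still green, hard and acid, and then ripens, when it softens, takes up sugar and loses acid. Many transcripts that serve the green, growing fruit are known to decline as ripening proceeds, while others come on. The flesh stores most of the sugar and water, and the skin carries the cuticle and much of the phenolic and aroma compounds. Lasy-seq, the library method named in the labels, indexes RNA at reverse transcription and reads mainly the 3′ ends of transcripts, so a count follows the number of transcripts and not their length. The digits after VIT in an identifier give the chromosome, then the scaffold and the order of the gene on it, with 00 for sequence not placed on a chromosome. Without an annotation, a gene appears here by its identifier alone, with no role attached.

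The libraries held 608901 to 7343203 counts. At stage 1, seedless flesh had 3576273 to 4035853 counts, against 608901 to 1252664 in seeded flesh, and seedless skin had 2957664 to 4019154, against 1116703 to 2379176 in seeded skin. Among the other libraries the lowest total was 2225500 counts, in seeded skin of stage 4. With the scaling by library totals, the median change of all genes of 10 CPM or more from stage 1 to stage 4 was 0.15 to 0.22 on the log2 scale in the 4 series; scaled by edgeR's TMM method it was -0.01 to 0.06. With TMM scaling the 69 genes had median changes of -2.34 in seedless flesh, -3.45 in seeded flesh, -2.01 in seedless skin and -3.22 in seeded skin, and each of them was still down by at least 1.44 in every series. In whole tissue, fewer cells of a type and less RNA per cell cannot be told apart.

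The 69 genes together held 0.964% of the counts of a library in seedless flesh at stage 1, 0.471% at stage 3 and 0.164% at stage 4. In seeded flesh the shares were 2.05%, 0.867% and 0.171%. Seedless skin gave 1.77%, 0.921% and 0.455%, and seeded skin 2.72%, 1.22% and 0.396%. At stages 1 and 3 every seeded library of a tissue lay above every seedless one, and at stage 4 seedless and seeded libraries overlapped. One gene, VIT_00s0187g00160, supplied a large part of these sums; without it the shares at stage 1 were 0.739% in seedless and 1.36% in seeded flesh, and 1.33% in seedless and 2.08% in seeded skin.

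**Figure D1:**
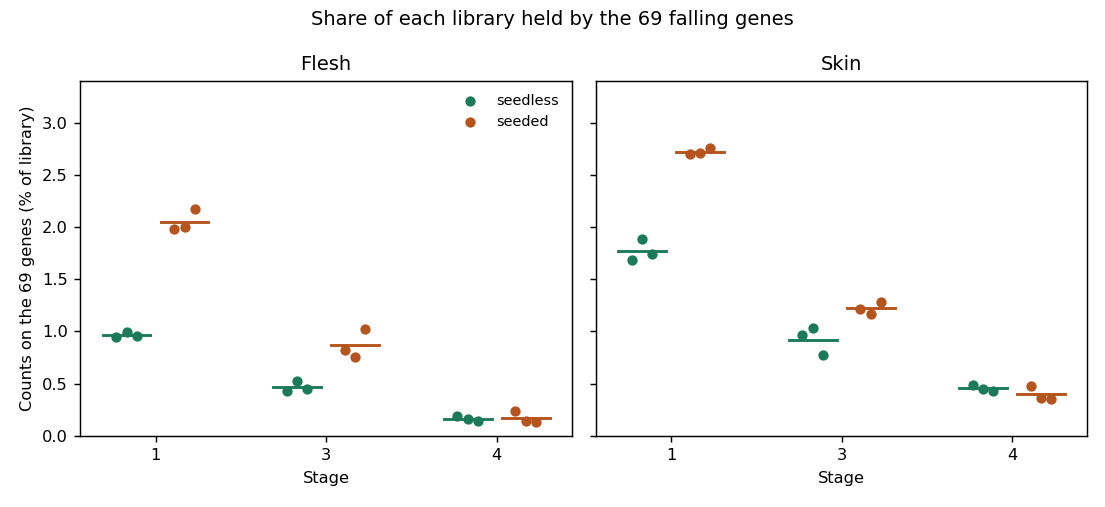
Share of each library's counts held by the 69 genes (y axis, percent) by stage (x axis) in flesh (left) and skin (right); points are libraries, bars are means of 3, seedless left of seeded. The stage 1 means are 0.964% in seedless and 2.05% in seeded flesh, and the stage 4 means are 0.164% and 0.171%.

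The median level of the 69 genes was 35.7 CPM in seedless flesh at stage 1, 17.8 CPM at stage 3 and 7.70 CPM at stage 4. Seeded flesh stood at 94.0, 31.5 and 7.79 CPM. Seedless skin had medians of 56.5, 29.3 and 12.5 CPM, and seeded skin of 128, 50.8 and 10.8 CPM. The group medians of all genes of 10 CPM or more stayed between 32.4 and 39.3 CPM, so at stage 4 the 69 genes stood below the typical gene in all 4 series. At stage 1 they stood well above it in seeded berries and in seedless skin, and in seedless flesh only slightly, at 35.7 CPM against 33.6 CPM.

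**Figure D2:**
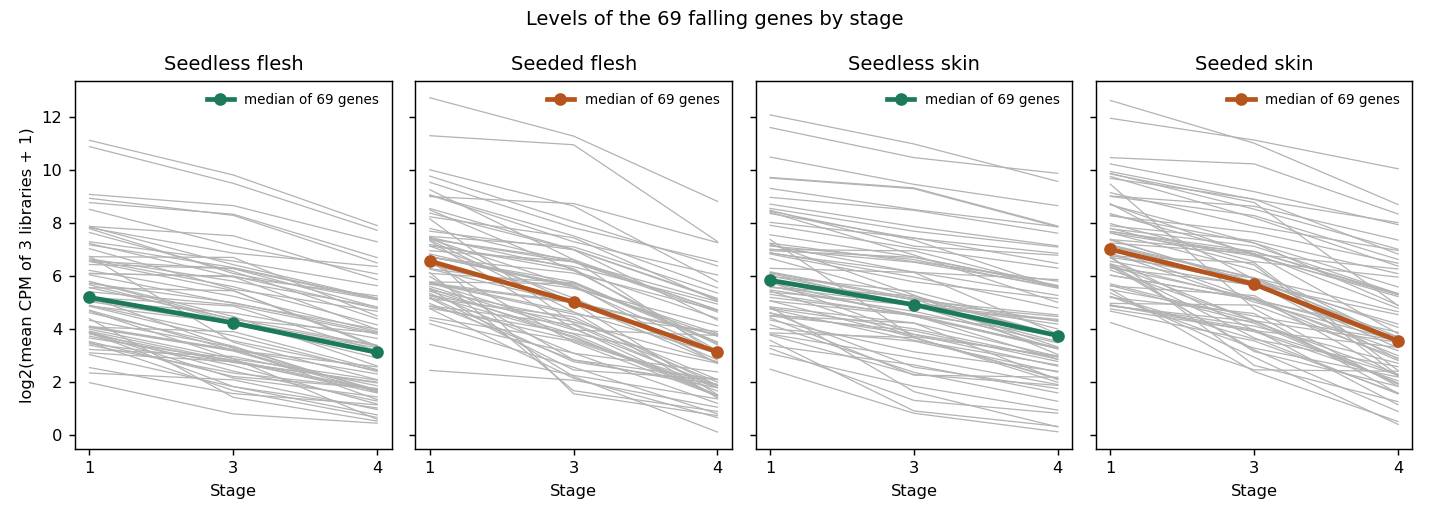
Levels of the 69 genes as log2(mean CPM of 3 libraries + 1) (y axis) at stages 1, 3 and 4 (x axis, evenly spaced) in each series; grey lines are genes and the coloured line is their median. The median change between stages 1 and 4 is -2.12 in seedless flesh, -3.29 in seeded flesh, -1.90 in seedless skin and -3.09 in seeded skin.

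Between stages 1 and 4, L changed by a median of -2.12 in seedless flesh, which is 4.36-fold, and by -3.29, or 9.80-fold, in seeded flesh. In skin the medians were -1.90 (3.74-fold) in seedless and -3.09 (8.51-fold) in seeded berries. Because 1 CPM is added before the logarithm, these values understate the change of genes that end near 0. The decline was larger in seeded than in seedless berries for 64 of the 69 genes in flesh and for 64 in skin, and for 62 in both. It was larger in skin than in flesh for 23. In flesh 47 genes, and in skin 56, were higher at stage 1 in seedless berries than at stage 3 in seeded ones. These counts come from the levels by which the genes were chosen, and no share over other genes was taken. They describe the 69 genes and do not show whether other declining genes differ from them.

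VIT_03s0063g02360 had the largest decline of the set, with a mean change of -5.94 in L over the 4 series. At stage 1 it had 92.6, 119 and 109 CPM in seedless flesh, against 349.9, 238 and 269.8 CPM in seeded flesh. By stage 3 the flesh values were 8.26, 12.7 and 10.1 CPM in seedless and 13.2, 13.3 and 26.1 CPM in seeded berries, and at stage 4 no flesh library exceeded 3.95 CPM. The skin showed the same order: 156, 179 and 164 CPM in seedless skin, against 744, 549.8 and 837 CPM in seeded skin at stage 1, and at most 3.61 CPM in any skin library of stage 4. Seedless and seeded libraries were fully separated at stages 1 and 3 in both tissues and overlapped at stage 4. Its numbered neighbour VIT_03s0063g02380 was next at -4.83 and went the same way at a lower level, with 25.4, 30.1 and 27.5 CPM in seedless skin, against 120.2, 92.2 and 109.5 CPM in seeded skin at stage 1.

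VIT_09s0002g06680 stood next, with a mean change of -4.37. It had 22.1, 29.7 and 22.4 CPM in seedless flesh, against 219, 151 and 125 CPM in seeded flesh at stage 1. The stage 3 values were 5.24, 6.95 and 6.97 CPM in seedless and 24.1, 13.3 and 35.2 CPM in seeded berries. No library of either tissue exceeded 2.51 CPM at stage 4. VIT_01s0011g02720, with a mean change of -4.26, had 7.55, 13.1 and 10.2 CPM in seedless flesh, against 109.6, 96.9 and 133 CPM in seeded flesh at stage 1. In flesh at stage 3 it had 1.81, 4.49 and 0.297 CPM in seedless and 0.976, 1.51 and 3.35 CPM in seeded berries. By then 64.1% of its change in L had taken place in seedless flesh and 86.4% in seeded flesh. In skin at stage 3 it had 0.243, 0.944 and 1.44 CPM in seedless skin, against 11.2, 10.6 and 13.4 CPM in seeded skin, so there only the seedless libraries were close to their stage 4 level. The other 6 of the 10 largest mean changes were VIT_02s0012g00990, VIT_07s0104g01390, VIT_10s0003g02890, VIT_11s0016g05830, VIT_01s0137g00240 and VIT_16s0022g00670, between -4.11 and -3.50.

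The most abundant member was VIT_00s0187g00160, with a mean of 2439 CPM over the 36 libraries. At stage 1 it had 2153, 2206 and 2377 CPM in seedless flesh, against 5201, 7518 and 7842 CPM in seeded flesh, and 4477, 4286 and 4358 CPM in seedless skin, against 5353, 7324 and 6472 CPM in seeded skin. At stage 4 it had 285, 204 and 232 CPM in seedless flesh, against 636, 318 and 406 CPM in seeded flesh, and 851, 785 and 658 CPM in seedless skin, against 527, 331 and 393 CPM in seeded skin. So at stage 4 the 2 kinds of berry stood in opposite order in the 2 tissues, with no overlap between libraries in either. VIT_04s0008g05010, second at 1220.4 CPM, stood higher in skin than in flesh in every library of a stage: at stage 4 it had 979, 925 and 936 CPM in seedless skin, against 1132, 1069 and 997 CPM in seeded skin, whereas flesh gave 80.7, 54.6 and 64.9 CPM in seedless and 60.3, 112 and 75.8 CPM in seeded berries. VIT_13s0064g01260, next at 1088 CPM, had 649.5, 838 and 693 CPM in seedless flesh, against 2145, 1639.6 and 2216 CPM in seeded flesh at stage 3, the stage at which its 2 flesh groups lay farthest apart. VIT_00s0533g00050 at 449 CPM and VIT_09s0002g04020 at 420.2 CPM complete the 5 highest.

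The decline was spread over both steps. The median gene had 44.0% of its change in L before stage 3 in seedless flesh, 41.2% in seeded flesh, 47.5% in seedless skin and 41.1% in seeded skin. The extremes, by the mean over the 4 series, were VIT_01s0146g00090 at 16.5% and VIT_04s0008g06150 at 23.9% on the late side, and VIT_07s0104g01390 at 71.7% and VIT_01s0011g02720 at 73.3% on the early side. In seeded flesh VIT_01s0146g00090 had 59.0, 55.8 and 47.1 CPM at stage 1, 53.4, 49.2 and 52.3 CPM at stage 3 and 14.6, 8.68 and 6.34 CPM at stage 4. VIT_07s0104g01390 in seeded flesh had 85.7, 52.6 and 69.5 CPM, then 2.44, 2.11 and 2.01 CPM, then 1.26, 0.362 and 0.939 CPM.

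Most steps held library by library. From stage 1 to 3, all 3 later libraries lay below all 3 earlier ones for 52 of the 69 genes in seedless flesh (9.78% of the 9304 genes of that level), 60 in seeded flesh (14.9%), 58 in seedless skin (9.52%) and 65 in seeded skin (14.6%). From stage 3 to 4 the counts were 60 in seedless flesh (14.5%), 60 in seeded flesh (17.4%), 56 in seedless skin (16.4%) and 63 in seeded skin (21.4%). All 8 steps were free of overlap for 27 of the 69 genes and for 0.537% of the 9304. The rule used these contrasts, so nothing is read from the counts against their background. Near the size limit, the smallest of the 4 changes was -1.303 for VIT_19s0014g02770, -1.328 for VIT_03s0017g01410 and -1.342 for VIT_04s0008g06150 among the genes kept. Among those just left out it was -1.298 for VIT_03s0180g00070, -1.294 for VIT_03s0063g02340 and -1.286 for VIT_03s0180g00040.

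Seedless and seeded berries, which the rule never compares, differed widely in these genes at stage 1. Of the 69 genes, 44 were lower in seedless than in seeded flesh and 52 were lower in seedless than in seeded skin (edgeR quasi-likelihood test, Benjamini-Hochberg adjusted p under 0.05 over all genes tested), 38 of them in both tissues (4.49% of the genes tested in both). Among all genes tested 8.34% were called lower in flesh and 9.87% in skin; among genes of 10 CPM or more the shares were 10.3% and 11.7%. None of the 69 was called higher in either tissue, where 8.80% of all genes were in flesh and 10.4% in skin; 0 were higher at an unadjusted p under 0.05, and DESeq2 also called 0 in each tissue. The median log2 difference, seedless minus seeded, was -1.13 in flesh and -1.07 in skin, against 0.05 and 0.02 for all genes tested. The genes that declined at both steps in all 4 series by a smaller amount were also often lower in seedless berries, 44.6% of 399 in flesh and 48.8% of 400 in skin. The stage 1 levels compared here are also the starting levels on which the rule drew, and 12 of the 69 genes reached a mean of 10 CPM only through the 6 seeded libraries of stage 1, in which they were high. Of the 57 genes that reached it in the other 30 libraries, 36 were lower in seedless flesh and 42 in seedless skin, against 9.97% and 11.1% of all VIT genes of that level. The medians of the 57 were -1.08 in flesh and -0.98 in skin. Depth moves with this contrast, and with every library thinned to 608901 counts the members called lower numbered 45 in flesh and 49 in skin.

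The largest stage 1 difference in flesh was that of VIT_01s0011g02720, 11.1-fold lower in seedless berries, whose libraries are given above. In skin the largest were VIT_07s0104g01390, with 1.99, 9.47 and 2.33 CPM in seedless skin, against 69.4, 27.8 and 36.3 CPM in seeded skin (log2 difference -3.45), and VIT_18s0001g13200, with 7.96, 16.6 and 3.63 CPM in seedless skin, against 113, 57.3 and 91.6 CPM in seeded skin (log2 difference -3.36). These 3 are among the 12 genes that reached 10 CPM only through the seeded libraries of stage 1, with 4.14, 2.99 and 3.51 CPM in the other 30, so their differences are a description with no test. In flesh VIT_06s0061g00730 followed, with 14.5, 18.1 and 12.3 CPM in seedless flesh, against 236, 93.6 and 150.1 CPM in seeded flesh (log2 difference -3.42, SE 0.41, adjusted p = 2.8e-05 with edgeR). In all 4 genes the libraries of these comparisons were fully separated. VIT_03s0063g02360 was 2.69-fold lower in seedless flesh (log2 difference -1.43, SE 0.18, adjusted p = 6.9e-07) and 4.51-fold lower in seedless skin (log2 difference -2.17, SE 0.17, adjusted p = 1.6e-08). The calls of VIT_06s0061g00730 in flesh and of VIT_03s0063g02360 in both tissues were kept under every alternative tried, 15 for each call. VIT_00s0187g00160 was 3.09-fold lower in seedless flesh (log2 difference -1.63, SE 0.27, adjusted p = 0.0011), whereas its skin call (log2 difference -0.62, SE 0.20, adjusted p = 0.042) was lost in 9 of 15 alternatives, which spanned adjusted p of 0.00024 to 0.18. Among single libraries it was lost without seeded skin replicate 2 (0.14) or 3 (0.091), or without seedless skin replicate 1 (0.092), 2 (0.097) or 3 (0.11).

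At stage 3 fewer genes were called, all in the same direction. In flesh 31 of the 69 were lower in seedless berries (5.54% of all genes tested, 7.62% of those of 10 CPM or more), and in skin 41 were (5.47% and 7.06%); 26 were called in both tissues (2.25%). None was called higher, where 5.15% of all genes were in flesh and 5.14% in skin; at an unadjusted p under 0.05, 1 was higher in flesh and 2 in skin, and DESeq2 called 0 in each. The median differences were -0.82 in flesh and -0.77 in skin, against 0.01 and 0.00 for all genes. Of the genes with a smaller steady decline 19.8% were lower in flesh and 26.5% in skin. The rule drew on the stage 3 levels too, so these counts are not independent of how the genes were chosen. Without the seeded libraries of stage 3, 68 genes reached 10 CPM in the other 30 libraries. Of these 68, 31 were lower in flesh and 41 in skin, against 7.54% and 6.94% of all VIT genes of that level. These 30 libraries include the seeded ones of stage 1, through which 12 of the 69 genes reached 10 CPM. The counts over the 68 therefore do not show what the stage 3 counts would be without those 12. The skin count rested in part on seedless skin replicate 3, without which 24 genes were lower and 1 was higher. Without seeded flesh replicate 2, 1 gene was called higher in flesh. Without replicate 3 of every group 17 genes were lower in flesh and 21 in skin, and thinned to one depth 25 were lower in flesh and 29 in skin.

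VIT_01s0137g00240 had the largest stage 3 difference in flesh and the second largest in skin. Its flesh libraries had 5.03, 13.1 and 7.87 CPM in seedless flesh, against 46.1, 47.1 and 55.9 CPM in seeded flesh (log2 difference -2.61, SE 0.27, adjusted p = 9.3e-08, edgeR). In skin it had 5.59, 2.12 and 4.73 CPM in seedless skin, against 25.8, 17.3 and 26.1 CPM in seeded skin (log2 difference -2.54, SE 0.33, adjusted p = 6.3e-07). VIT_01s0011g02720 was the largest in skin (log2 difference -3.73), while in flesh the same gene had a difference of 0.16 and was not called. It is among the 12 genes that reached 10 CPM only through the seeded libraries of stage 1, so its differences are a description with no test. VIT_08s0007g07690 had 2.01, 6.54 and 1.78 CPM in seedless flesh, against 14.9, 11.5 and 19.8 CPM in seeded flesh (log2 difference -2.22, SE 0.42, adjusted p = 0.00059), and in skin its difference was -1.54. The stage 3 calls of VIT_01s0137g00240 and VIT_08s0007g07690 too were kept in all 15 alternatives. VIT_13s0064g01260 was 3.02-fold lower in seedless flesh (log2 difference -1.59, SE 0.35, adjusted p = 0.01), although at stage 1 its difference there was -0.43 and not called. The flesh call at stage 3 was lost without seedless flesh replicate 1 (0.051), within a range over alternatives of 1.8e-07 to 0.13.

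By stage 4 the median difference between seedless and seeded berries was near 0. The stage 4 levels are also the end levels on which the rule drew. In flesh 3 were called lower (1.35% of all genes) and none higher (2.35%); at an unadjusted p under 0.05, 8 were lower and 5 higher, and DESeq2 called 6 lower and 1 higher. In skin 7 were called higher (2.06%) and none lower (1.42%); at an unadjusted p under 0.05, 14 were higher and 3 lower, and DESeq2 called 7 higher and 2 lower. The medians were 0.03 in flesh and 0.18 in skin, with 33 genes lower by sign in flesh and 26 in skin. These counts are small and depend on single libraries. Without seeded flesh replicate 1 the flesh counts were 0 lower and 4 higher, and without seedless flesh replicate 1 or replicate 3 only 1 was lower. The skin count of higher genes was 4 without seeded skin replicate 2, seeded skin replicate 3 or seedless skin replicate 2, and 3 without seedless skin replicate 1; without seeded skin replicate 1, 1 gene was lower. Counting error is largest here, since 3 to 5 of the 69 genes had 10 reads or fewer in a stage 4 group.

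**Figure D3:**
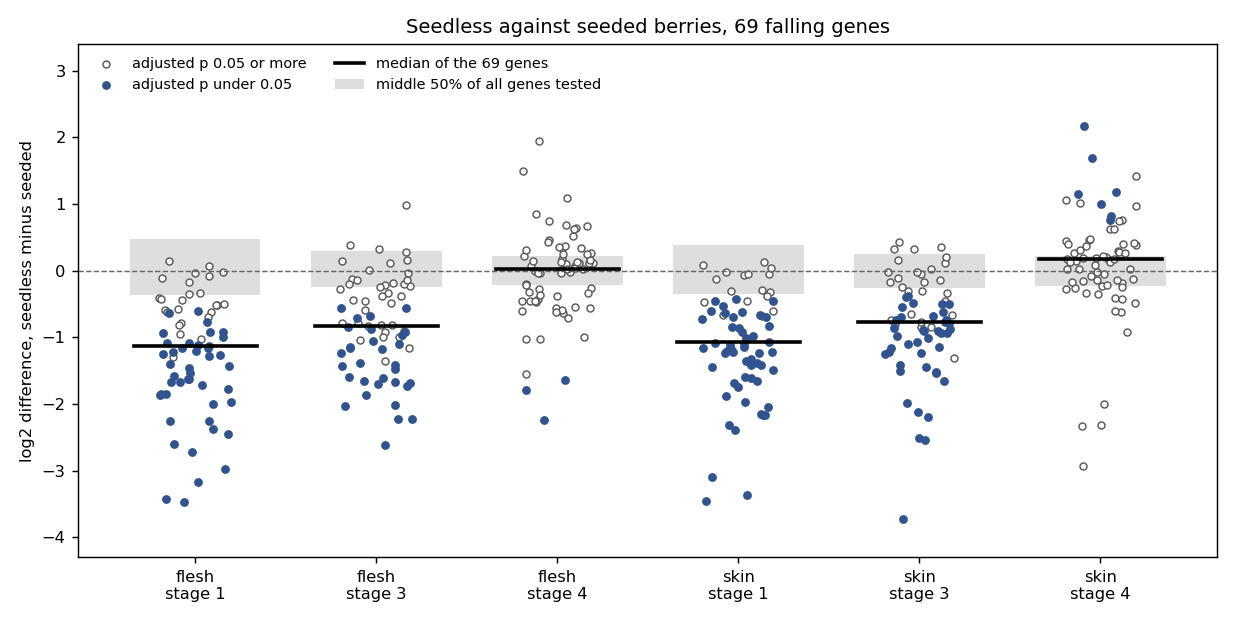
Log2 difference between seedless and seeded berries (y axis) for the 69 genes in each tissue and stage (x axis); filled points have an adjusted p under 0.05 by edgeR, black bars are medians of the 69 and grey boxes span the middle 50% of all genes tested. The medians are -1.13, -0.82 and 0.03 in flesh and -1.07, -0.77 and 0.18 in skin at stages 1, 3 and 4.

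VIT_17s0000g06350 changed sides in skin. At stage 1 it had 67.9, 60.9 and 62.0 CPM in seedless skin, against 138, 98.5 and 86.0 CPM in seeded skin (log2 difference -0.84, SE 0.16, adjusted p = 0.00019, edgeR). At stage 3 it had 29.4, 34.7 and 26.5 CPM in seedless skin, against 104, 85.5 and 80.9 CPM in seeded skin (log2 difference -1.66, SE 0.17, adjusted p = 3.6e-09). At stage 4 the order was the other way round, with 23.8, 21.6 and 18.3 CPM in seedless skin, against 3.15, 6.16 and 3.92 CPM in seeded skin (log2 difference 2.17, SE 0.24, adjusted p = 3.5e-07). Groups were fully separated at each stage, and the 3 calls were kept in all 15 alternatives. Its mean at stages 3 and 4 was 30.2 and 21.3 CPM in seedless skin, against 90.1 and 4.41 CPM in seeded skin.

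VIT_09s0002g04020 did likewise on a smaller scale in skin. Its stage 4 libraries had 266, 236 and 195 CPM in seedless skin, against 136, 113 and 91.1 CPM in seeded skin (log2 difference 0.99, SE 0.14, adjusted p = 6.9e-05, edgeR, kept in all 15 alternatives), after differences of -0.46 at stage 1 and -0.48 at stage 3. Of those 2 earlier calls, the first was lost without seeded skin replicate 1 (0.073) or seedless skin replicate 3 (0.079), over a range of 8.4e-05 to 0.079; the second was lost without the same 2 libraries of its own stage (0.092 and 0.11), over a range of 4.4e-05 to 0.11. VIT_16s0039g00820 had no difference called in skin at stages 1 and 3 (-0.02 and -0.13), and at stage 4 had 33.4, 24.7 and 35.6 CPM in seedless skin, against 12.1, 15.6 and 11.8 CPM in seeded skin (log2 difference 1.19, SE 0.19, adjusted p = 0.0003). That call was kept in 14 of 15 alternatives and lost on thinning (0.14; range 7.5e-12 to 0.14).

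The other 4 higher calls in skin at stage 4 were less firm. VIT_13s0067g01150 had 6.05, 3.52 and 3.35 CPM in seedless skin, against 0.899, 1.03 and 1.68 CPM in seeded skin (log2 difference 1.69, SE 0.42, adjusted p = 0.014, edgeR); the call was lost without seeded skin replicate 2 (0.075) or seedless skin replicate 1 (0.15), and its alternatives ran from 0.0077 to 0.27. VIT_00s0187g00160 (log2 difference 0.82, SE 0.20, adjusted p = 0.042) lost its call without seeded skin replicate 2 (0.13) or 3 (0.17) or seedless skin replicate 1 (0.15) or 2 (0.13), over a range of 0.00017 to 0.26. VIT_18s0001g14360 (log2 difference 0.76, SE 0.19, adjusted p = 0.023) and VIT_07s0005g04130 (log2 difference 1.15, SE 0.29, adjusted p = 0.018), both named after their values were seen, each lost theirs in 7 of 15. For VIT_18s0001g14360 the single libraries were seeded skin replicates 2 (0.11) and 3 (0.17) and seedless skin replicates 1 (0.07) and 2 (0.11), over a range of 2.5e-06 to 0.19. For VIT_07s0005g04130 they were seeded skin replicate 3 (0.1) and seedless skin replicates 1 (0.11) and 2 (0.057), over a range of 0.0043 to 0.2.

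At stage 4, 3 genes were called lower in seedless flesh. VIT_06s0080g00920 had 1.74, 0.157 and 1.18 CPM in seedless flesh, against 4.78, 4.34 and 3.52 CPM in seeded flesh (log2 difference -2.24, SE 0.55, adjusted p = 0.013, edgeR); the call was lost without seeded flesh replicate 1 (0.053) or seedless flesh replicate 2 (0.17), over a range of 0.0017 to 0.66. VIT_01s0137g00240 had 0.289, 2.51 and 1.78 CPM in seedless flesh, against 8.80, 2.53 and 5.16 CPM in seeded flesh (log2 difference -1.79, SE 0.46, adjusted p = 0.023). It lost its call without seeded flesh replicate 1 (0.2) or 3 (0.066) or seedless flesh replicate 1 (0.073) or 3 (0.07), over a range of 7.8e-05 to 0.75. VIT_19s0093g00550, named after its values were seen, averaged 4.53 ± 1.52 CPM in seedless berries, against 14.0 ± 4.12 CPM in seeded berries (SD, n = 3 each; log2 difference -1.64, SE 0.43, adjusted p = 0.033). Its call was lost without seeded flesh replicate 1 (0.16) or 2 (0.089) or seedless flesh replicate 1 (0.14) or 3 (0.13), over a range of 2.9e-06 to 0.52. Thinned to one depth, none of the 3 flesh calls remained.

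Counted over stages 1 and 3 in both tissues, 15 of the 69 genes were called lower in seedless berries in all 4 comparisons (0.627% of the genes tested in both tissues, 0.885% of those of 10 CPM or more) and 6 in none (81.1% and 77.2%). These counts take in the 12 genes that reached 10 CPM only through the seeded libraries of stage 1, and were not repeated without them. VIT_09s0002g06680, 1 of the 15, is such a gene. Named for other values are 9 of the 15, and each of the 9 lost at least 1 of its 4 calls under an alternative; of their 36 calls, 14 were lost somewhere, 7 of them without a single library. The 6 called in none were VIT_00s0533g00050, 1 of the 5 highest, and VIT_14s0066g01850, VIT_01s0026g01950, VIT_06s0009g02500, VIT_07s0031g01530 and VIT_03s0017g01460, the other 5 being named after their values were seen. VIT_00s0533g00050 was well measured: it had 455, 494 and 366 CPM in seedless flesh, against 863, 721 and 657 CPM in seeded flesh at stage 1, a difference of -0.78 with an adjusted p of 0.052 by edgeR. At stage 3 it had 691, 709 and 536 CPM in seedless skin, against 501, 451 and 475 CPM in seeded skin, seedless being above seeded by 0.36 on the log2 scale with no overlap and an adjusted p of 0.065. A p above 0.05 does not show that the groups were equal.

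**Figure D4:**
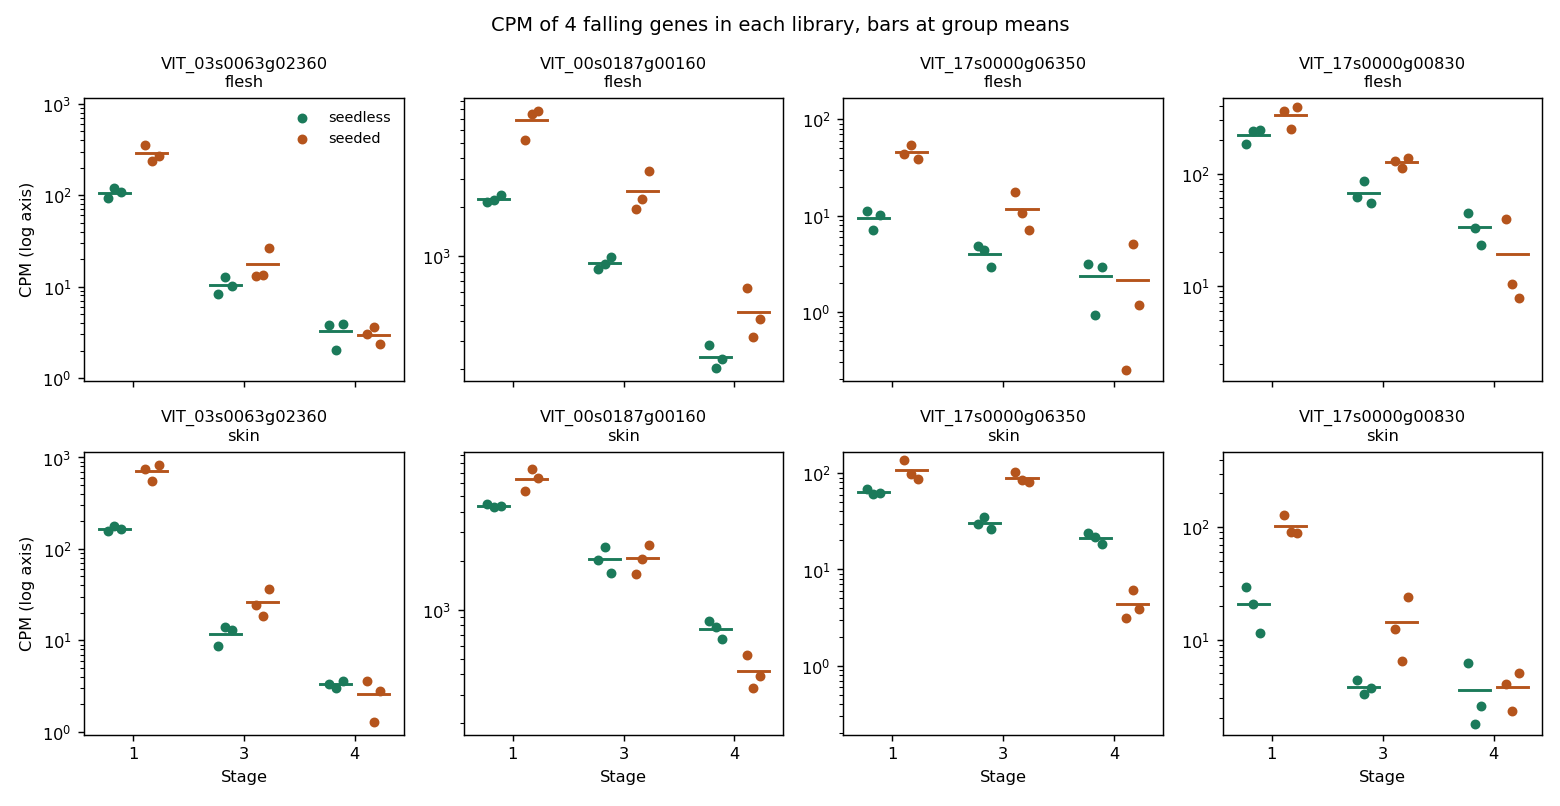
CPM (y axis, log scale, the same range for flesh above and skin below) of 4 of the genes by stage (x axis); points are libraries, bars are means of 3, seedless left of seeded. VIT_17s0000g06350 changes sides in skin at stage 4, and VIT_17s0000g00830 is lower in skin than in flesh at each stage.

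More of the genes were higher in skin than in flesh. With seedless and seeded berries averaged in one edgeR fit of the 36 libraries, 36 of the 69 were higher in skin at stage 1 (20.1% of all genes tested), 38 at stage 3 (22.7%) and 46 at stage 4 (23.3%). Fewer were lower in skin, namely 13 at stage 1 (15.3%), 12 at stage 3 (17.4%) and 10 in the last stage (18%). Among genes of 10 CPM or more, 20.9%, 22.5% and 23.7% were higher and 20.3%, 22.3% and 22.9% lower at stages 1, 3 and 4. The lower calls, 18.8%, 17.4% and 14.5% of the 69, thus stood near or below the share of genes of that level. The median skin-minus-flesh difference was 0.52, 0.64 and 0.95 on the log2 scale at stages 1, 3 and 4, against 0.02, 0.01 and 0.00 for all genes. Higher at all 3 stages were 32 of the 69 (13.7% of all genes tested, 14.4% of those of 10 CPM or more), and lower at all 3 were 9 (7.72% and 10.5%). The genes with a smaller steady decline were higher in skin in 47.5%, 50.5% and 59.8% of cases. The level filter pools skin and flesh, so some members reached 10 CPM only through the tissue in which they are high. VIT_12s0035g00880 did so through skin, with flesh medians of 4.07, 2.23 and 1.08 CPM at stages 1, 3 and 4. VIT_13s0156g00100 did so through flesh, with skin medians of 9.61, 2.93 and 1.40 CPM. The counts were not repeated with the filter set on 1 tissue.

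**Figure D5:**
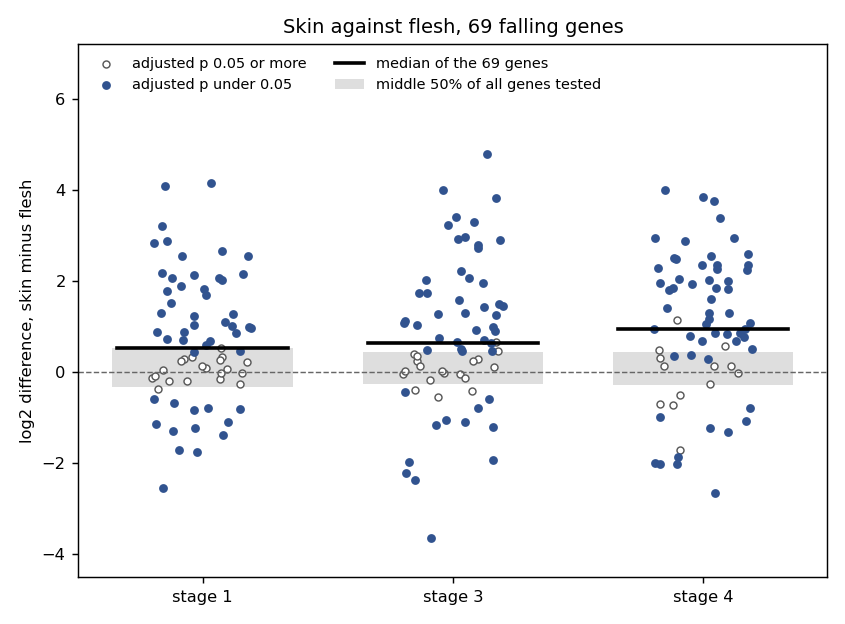
Log2 difference between skin and flesh (y axis), averaged over seedless and seeded berries, for the 69 genes at each stage (x axis); symbols as for the seedless and seeded comparison. The medians are 0.52, 0.64 and 0.95 at stages 1, 3 and 4, with differences between -3.65 and 4.78.

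VIT_16s0039g00820 had the largest skin excess at stages 1 and 3. Its 6 skin libraries of stage 1 had 278 to 402 CPM (median 335), against 8.95 to 52.0 CPM (median 18.1) in the 6 of flesh (log2 difference 4.14). At stage 3 skin had 86.7 to 129.7 CPM (median 118) and flesh 2.52 to 6.37 CPM (median 3.55) (log2 difference 4.78). VIT_01s0010g03620 led at stage 4, with 35.9 to 50.4 CPM (median 43.1) in skin and 1.26 to 4.34 CPM (median 2.80) in flesh (log2 difference 4.00). Over the flesh libraries alone, neither VIT_16s0039g00820 nor VIT_01s0010g03620 reached a mean of 10 CPM. Both passed the level filter only through skin, where they are high, so their differences are a description with no test. VIT_04s0008g05010 moved apart as the berries aged, with differences of 2.65, 3.22 and 3.84 at stages 1, 3 and 4; whether these differ from one another was not tested. In each of these genes all skin libraries lay above all flesh libraries of the stage.

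On the flesh side, VIT_17s0000g00830 was the lowest in skin at every stage. At stage 1 it had 11.4 to 127 CPM (median 59.1) in skin and 183 to 387 CPM (median 247) in flesh (log2 difference -2.55, SE 0.29, adjusted p = 1e-07, edgeR). The stage 3 ranges were 3.30 to 24.1 CPM (median 5.40) in skin and 54.9 to 137 CPM (median 99.1) in flesh (log2 difference -3.65, SE 0.35, adjusted p = 2.1e-09), and at stage 4 they were 1.76 to 6.25 CPM (median 3.31) and 7.74 to 44.2 CPM (median 28.1) (log2 difference -2.66, SE 0.42, adjusted p = 9.5e-06). The libraries of the 2 tissues did not overlap at any stage. The skin-minus-flesh calls of VIT_04s0008g05010 and VIT_17s0000g00830 held in all 8 alternatives of the 36-library fit.

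VIT_13s0064g01260 was called both ways. At stage 1 it was lower in skin, with 1287 to 1558 CPM (median 1463) against 1792 to 2719 CPM (median 2179) in flesh (log2 difference -0.60, SE 0.20, adjusted p = 0.019, edgeR), a call lost without replicate 2 (0.12) or 3 (0.14) of every group over a range of 3.3e-13 to 0.14. At stage 4 it was higher, with 258 to 459 CPM (median 390.4) in skin and 92.2 to 280.3 CPM (median 188) in flesh (log2 difference 1.05, SE 0.20, adjusted p = 0.00013), kept in all 8 alternatives. No call at any stage was made for VIT_01s0011g02720, VIT_02s0012g00990, VIT_19s0093g00550, VIT_01s0026g00330 and VIT_06s0004g07310, of which the first 2 are among the 10 largest declines.

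Whether the seedless-minus-seeded difference itself differed between skin and flesh was tested in the same edgeR fit. At stage 1, 2 of the 69 genes had a higher difference in skin (1.50% of all genes tested) and 1 a lower one (0.687%). At an unadjusted p under 0.05 the numbers were 15 and 7, and DESeq2 called 6 higher and 2 lower. The higher ones were VIT_16s0039g00820, whose seedless and seeded means were 10.6 ± 2.24 and 34.8 ± 15.2 CPM in flesh but 341 ± 52.9 and 328 ± 43.9 CPM in skin (SD, n = 3 each), and VIT_01s0010g03620. The lower one was VIT_02s0154g00580, named after its values were seen, with differences of -1.42 in skin and -0.34 in flesh. At stage 3, 1 gene was higher (0.283%, 1 by DESeq2) and none lower (0.168%, 5 at an unadjusted p under 0.05, 1 by DESeq2). At stage 4, 1 was higher (0.0472%, 2 by DESeq2) and none lower (0.0809%, 2 at an unadjusted p under 0.05, 0 by DESeq2). Both edgeR calls were of VIT_00s0187g00160, whose differences were -0.11 in skin and -1.61 in flesh at stage 3, and 0.82 and -0.99 at stage 4.

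The identifiers place 9 of the 69 genes on chromosome 1 (13.0%, against 6.09% of all genes of 10 CPM or more), 7 on chromosome 7 (10.1% against 5.71%) and 6 on chromosome 6 (8.70% against 5.67%), and 5 on unplaced sequence (7.25% against 4.86%). Every chromosome carried at least 1. There were 4 pairs of members whose numbers on a scaffold differ by 50 or less. VIT_03s0063g02360 and VIT_03s0063g02380 had a Pearson r of 0.98 over the 36 libraries, VIT_02s0154g00580 and VIT_02s0154g00590 of 0.97, VIT_03s0017g01410 and VIT_03s0017g01460 of 0.96, and VIT_01s0026g00290 and VIT_01s0026g00330 of 0.84. These r values describe libraries that share stages, and reads of near-identical copies could have been split between such neighbours. The rows between the first pair were nearly silent, with VIT_03s0063g02370 at a mean of 0.346 CPM, and VIT_03s0063g02340, 1 of the 3 genes just outside the size limit, lies on the same scaffold. Between the last pair, VIT_01s0026g00310 and VIT_01s0026g00320 did not decline in any series, with changes in L of 0.21 to 1.54. VIT_01s0026g00300, also between them at a mean of 5.65 CPM, ended lower in all 4 series, with changes of -0.10 to -1.45. Between the third pair, VIT_03s0017g01450 at 29.6 CPM changed by -2.02 and -1.83 in seedless and seeded flesh and -1.13 and -1.22 in seedless and seeded skin. It did not decline at both steps in every series. The other rows there had a mean of 1.38 CPM or less.

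Precision differed by stage. The coefficient of variation among 3 libraries had a median over the 69 genes of 16.4% in seedless and 19.9% in seeded flesh at stage 1, and of 30.3% and 45.0% at stage 4. In skin it was 14.8% in seedless and 15.5% in seeded berries at stage 1, and 16.6% and 32.5% at stage 4. The 69 genes had a median of 116 reads per group in seedless and 83 in seeded flesh at stage 4, against 410 and 243 at stage 1, and no gene was without reads in any group.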

How the data were processed

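RNA sequencing of the 36 libraries was used as 1 table of raw counts per gene, which the authors deposited as whole numbers with no normalization. The tools were fastp 0.20.0 for trimming, HISAT2 2.2.1 for alignment and featureCounts for counting, per the submitters' processing notes. Not given in the sources used here: the build, the annotation, strandedness and the handling of multiply matching reads. The table has 30661 rows (29971 VIT, 690 ENSRNA), 0 summary rows and 0 per-sample columns outside the 36 samples. Replicates of a group differed by at least 3.45 times counting variance, so all were kept.

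The rule used CPM of column totals with 1 CPM added before log2. Tests used edgeR 4.0.16 in R 4.3.3: filterByExpr (minimum count 10), TMM (factors 0.90 to 1.14), robust quasi-likelihood F-test, Benjamini-Hochberg over all genes of a contrast, threshold 0.05; the standard error is the log2 difference over the square root of F. Flesh and skin were fitted apart (18 libraries, 6 groups; 13639 and 14193 genes), skin against flesh in all 36 (14841 genes). The code was tested on simulated data. Alternatives were upper-quartile scaling, no count filter, DESeq2 1.42.0, a replicate block, binomial thinning to 608901 counts, only the 6 libraries compared, and leaving out replicates or, chosen after seeing the data, single libraries, and the level filter over the 30 libraries other than the seeded ones of a stage.

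Genes named are the 10 largest mean declines, the 5 highest CPM, the 2 largest differences each way per seedless and seeded contrast and 1 each way per tissue contrast among called genes without overlap, the extremes of early share, and those next to the size limit; exceptions are marked. The members and lists were chosen with earlier results of these data known. The planned lists of gene products, cell type markers and promoter motifs needed an annotation and sequences, which were not used here, so they have no result and the tissue labels were not checked against markers.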

Additional observations from a re-analysis of the deposited data

Results flagged for a closer look

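Between skin and flesh, 4 of the 69 genes had seedless-minus-seeded differences that differed by edgeR's test of that difference in the fit of all 36 libraries, 1 of them at 2 stages. At stage 1 the difference was higher in skin than in flesh by 1.41 for VIT_01s0010g03620 (SE 0.30, adjusted p = 0.004, edgeR), which had 124, 133 and 130.2 CPM in seedless skin, against 182, 141 and 175 CPM in seeded skin, and 7.27, 12.1 and 5.74 CPM in seedless flesh, against 30.9, 31.2 and 28.7 CPM in seeded flesh. The call was lost without replicate 3 of every group (0.14; range over 8 alternatives 0.00058 to 0.14). For VIT_16s0039g00820 it was higher in skin by 1.71 at stage 1 (SE 0.34, adjusted p = 0.0028, edgeR), with 306, 402 and 316 CPM in seedless skin, against 278, 353 and 355 CPM in seeded skin, and 8.95, 13.1 and 9.66 CPM in seedless flesh, against 52.0, 23.0 and 29.5 CPM in seeded flesh. This call was lost without replicate 1 of every group (0.14; range 2.6e-07 to 0.14).

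VIT_02s0154g00580 went the other way, with -1.05 at stage 1 (adjusted p = 0.011, edgeR). It had 63.4, 53.1 and 52.9 CPM in seedless skin, against 121, 154 and 159 CPM in seeded skin, and 145, 153 and 135 CPM in seedless flesh, against 179.9, 164 and 197 CPM in seeded flesh, and the call was lost without replicate 2 (0.17) or replicate 3 (0.1) of every group (range 0.00022 to 0.17). For VIT_00s0187g00160 the difference was 1.50 at stage 3 (SE 0.34, adjusted p = 0.044, edgeR) and 1.83 at stage 4 (SE 0.35, adjusted p = 0.026). At stage 4 seedless libraries lay below seeded ones in flesh and above them in skin. The stage 3 call was lost on thinning to one depth (0.11) and without replicate 2 (0.4) or 3 (0.4), over a range of 1.7e-21 to 0.4. At stage 4 it was lost on thinning (0.2) and without replicate 2 (0.81) or 3 (0.44), over a range of 4e-31 to 0.81.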

How the results depend on the processing

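The number of genes chosen was 98 with TMM scaling (all 69 among them), 56 with a minimum of 20 CPM and 74 with 5 CPM, 22 with a decline of 2 or more, 115 with 1 or more, and 61 to 81 when a replicate number was left out. Seedless-minus-seeded counts moved as follows. Higher in flesh at stage 3: 1 with the replicate block and 1 on thinning to one depth. Higher in flesh at stage 4: 1 with no count filter, 1 with DESeq2, 1 with the replicate block and 1 with only the 6 libraries compared. Lower in flesh at stage 4: 6 with no count filter, 6 with DESeq2 and 0 on thinning. Higher in skin at stage 3: 2 with no filter, 1 with the block and 1 with only the 6 libraries. In skin at stage 4, 2 were higher on thinning, and lower were 2 with no filter, 2 with DESeq2 and 1 with the block. The cause of these moves was not tested. With a replicate number or single library left out, counts of lower genes ran from 36 to 42, 17 to 33 and 0 to 3 in flesh at stages 1, 3 and 4, and from 40 to 50, 21 to 37 and 0 to 1 in skin; counts of higher genes ran from 0 to 1 at stage 3 and 0 to 4 at stage 4 in flesh, and from 0 to 1 and 3 to 10 in skin. Skin-minus-flesh counts ran from 34 to 36, 33 to 36 and 40 to 42 higher and from 10 to 14, 11 to 13 and 8 to 10 lower. Of 2105 values of 177 called pairs of gene and contrast under alternatives, 1897 kept direction and call, 208 lost the call and 0 reversed. Seedless and seeded libraries of equal replicate number correlated weakly (correlations of deviations -0.11 to 0.21). In skin at stages 3 and 4, however, each library correlated best with its own number, at 0.02 to 0.12. The replicate block gave 46 and 28 genes lower in flesh and 54 and 41 in skin at stages 1 and 3. Skin and flesh of a number correlated at 0.07 to 0.29, and at stage 3, where each pair exceeded 0.1, the block left 38 higher and 12 lower. The block fits 1 effect per replicate number across all groups, and not pairs of skin and flesh from the same kind of berry and stage. These counts therefore do not show what pairing would change. In every skin and flesh comparison each library correlated best with its own number, a hint from the data and not the design. Seeded stage 1 depth and low stage 4 reads limit precision.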
